A study of Mus musculus with 48 samples.

Results

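A set of 10 genes of lipoprotein assembly and metabolism were followed in the livers of dichloroacetic acid (DCA)-exposed mice, chosen by symbol from the 2 deposited TempO-Seq tables: Apob, Mttp, Apoa1, Apoa2, Apom, Apoe, Apoc3, Apoa4, Apoa5 and Lipc. All were listed both in the table of frozen (FROZ) liver, among 11275 genes, and in that of formalin-fixed paraffin-embedded (FFPE) liver, among 6673 genes. The choice was by symbol, with earlier results of these data known. The mice were male B6C3F1, 4 weeks of age, and had received DCA in drinking water for 6 days at 1.0, 2.0 or 3.5 g/L, or 0 g/L as vehicle control. These concentrations correspond to doses of 198, 313 and 427 mg/kg-d, with 6 animals per group and 24 animals in all. Each liver gave 1 FROZ and 1 FFPE library, so the 48 libraries form 24 pairs. FROZ RNA came from flash-frozen tissue of left lateral caudate and right medial lobes. FFPE libraries came from sections of the left lateral and right medial lobes, stored in paraffin for more than 20 years and lysed directly. Preservation, RNA preparation and, in part, the lobes sampled thus differed together between the tables and cannot be told apart.

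Lipoproteins carry triglyceride and cholesterol in blood. In hepatocytes, the microsomal triglyceride transfer protein, encoded by Mttp, loads lipid onto apolipoprotein B (Apob) as it is translated, and the resulting very low density lipoprotein is exported. Apolipoproteins A-I and A-II (Apoa1, Apoa2) form the protein coat of high density lipoprotein, and apolipoprotein M (Apom) is carried on the same particle. Apolipoprotein E (Apoe) is the ligand by which remnants are cleared. Apolipoproteins C-III and A-V (Apoc3, Apoa5) act on lipoprotein lipase in opposite senses, C-III slowing and A-V promoting the hydrolysis of triglyceride, while hepatic lipase (Lipc) acts on remnants and high density lipoprotein in the liver. Liver and intestine both make apolipoprotein A-IV (Apoa4).

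In the GENCODE annotation of GRCm38 (mm10), Apoa1 (chr9:46228580-46230466, + strand), Apoc3 (chr9:46232933-46235636, - strand), Apoa4 (chr9:46240696-46243459, + strand) and Apoa5 (chr9:46268633-46271919, + strand) lie side by side within 43.3 kb. Lipc (chr9:70798128-70952226, - strand) is on the same chromosome, 24.5 Mb away. The others are at chr12:7977648-8016835 (Apob, + strand), chr3:138089854-138144968 (Mttp, - strand), chr1:171225054-171226379 (Apoa2, + strand), chr17:35128997-35132050 (Apom, - strand) and chr7:19696109-19699188 (Apoe, - strand). Exons of Mttp overlap the extents of Gm43691 and Trmt10a on the other strand. Those of Apoa4 overlap the extents of Gm47528 and Gm10680, and those of Apoa5 the extent of Gm47544. Overlap with the exons of these other genes was not examined. Whether reads were assigned by strand is not given in the sources used here. No window of 50 bases in the transcripts of any of the 10 genes occurred in a transcript of another gene in the same orientation. The opposite orientation was not searched.

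The promoters of the genes below are shown because 4 of these 5 genes decreased and 1 increased in FROZ liver at the highest dose, and because each is a RefSeq start region (GRCm38.p6) with bases outside annotated exons. Of the 10 genes, 9 had an entry, and Apoc3 did not. The window of Mttp lay inside an annotated exon and is not shown. Capitals mark TATAAA (the TATA box), AGGTCA (an element bound by nuclear receptors) or DR1, here AGNNCA repeated in direct orientation with 1 base between, on either strand. DR1 is the arrangement bound by receptors such as HNF4A and PPARA.
Apob, 221 bases at chr12:7977427-7977647, + strand: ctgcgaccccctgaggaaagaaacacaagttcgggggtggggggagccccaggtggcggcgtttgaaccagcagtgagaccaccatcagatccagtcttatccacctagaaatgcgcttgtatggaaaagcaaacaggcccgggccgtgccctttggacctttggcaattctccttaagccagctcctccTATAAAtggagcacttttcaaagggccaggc
Apoa2, 250 bases at chr1:171224804-171225053, + strand: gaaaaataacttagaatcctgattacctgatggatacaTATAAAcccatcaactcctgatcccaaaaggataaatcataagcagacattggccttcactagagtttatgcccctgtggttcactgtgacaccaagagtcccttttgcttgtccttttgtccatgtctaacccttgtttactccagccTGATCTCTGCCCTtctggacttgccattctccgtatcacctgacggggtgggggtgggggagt
Apoa4, 102 bases at chr9:46240594-46240695, + strand: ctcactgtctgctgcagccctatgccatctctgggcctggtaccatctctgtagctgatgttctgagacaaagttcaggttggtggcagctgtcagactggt
Apoa5, 250 bases at chr9:46268358-46268607, + strand: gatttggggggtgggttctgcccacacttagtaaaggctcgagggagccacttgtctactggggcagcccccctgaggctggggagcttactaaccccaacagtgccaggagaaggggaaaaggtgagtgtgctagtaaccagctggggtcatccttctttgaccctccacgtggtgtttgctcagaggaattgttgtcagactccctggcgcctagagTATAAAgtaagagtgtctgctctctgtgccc
Lipc, 250 bases at chr9:70934809-70935058, - strand, before an inner start within the gene: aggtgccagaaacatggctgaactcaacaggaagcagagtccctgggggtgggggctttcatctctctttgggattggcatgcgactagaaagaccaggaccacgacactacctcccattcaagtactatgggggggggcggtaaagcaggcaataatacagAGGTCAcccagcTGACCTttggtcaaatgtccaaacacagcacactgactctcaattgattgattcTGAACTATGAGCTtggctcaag
TATAAA stood at -60 to -55 in Apob, at -212 to -207 in Apoa2 and at -31 to -26 in Apoa5, with -1 for the base before the RefSeq start of the window. That start can differ from the annotated gene start given above. In Apob the printed bases end at -30, directly before the annotated gene start (chr12:7977648). DR1 stood on the opposite strand at -63 to -51 in Apoa2 and at -22 to -10 in Lipc. Lipc also held AGGTCA at -88 to -83 and, on the opposite strand, at -76 to -71. These Lipc matches lie before the inner start. The window at the annotated 5' end of Lipc (chr9:70952172-70952471), not shown, held 0 of these motifs. Over all RefSeq windows of 300 bases (from 250 before to 50 after a start), TATAAA was present in 13.6% of 32851, AGGTCA in 16.3% and DR1 in 2.78%, any overlap between motifs included. Among the 9 genes with an entry, 4, 2 and 2 had these motifs, in the same order, in at least 1 window. Some of these genes had several windows, so the counts per gene cannot be set against the shares per window. The matches describe letters and do not show binding.

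Expression was analyzed on the deposited scale, log2(CPM + 1), where CPM is reads scaled to a fixed total over the genes of that table. In TempO-Seq, a pair of detector oligos is ligated on its target transcript and the ligated probe is amplified and counted. Abundant probes were attenuated in the assay, among them probes of Apoc3, Apoa2, Apoa1 and Apoe, so levels were compared between groups and not between genes. Reads on listed genes ranged from 6.69 to 9.84 M per FROZ library and from 1.83 to 6.01 M per FFPE library. Genes at 0 numbered 12 to 61 of 11275 in FROZ libraries and 65 to 1580 of 6673 in FFPE libraries. More than 1000 genes were at 0 in the FFPE libraries of animals 49, 52 and 54 (198 mg/kg-d) and 73 (313 mg/kg-d). Of the hepatocyte markers, Alb measured 11.55 ± 0.23 in FROZ vehicle libraries and 13.22 ± 0.24 in FFPE vehicle libraries (mean log2(CPM + 1) ± SD, n = 6). Hnf4a was also higher in FFPE (8.51 ± 0.27 in FROZ and 10.38 ± 0.42 in FFPE). Ttr (10.58 ± 0.37 and 10.11 ± 0.41) and Serpinc1 (11.945 ± 0.146 and 10.753 ± 0.18) were lower in FFPE. Cps1 was listed in FROZ only, and Tf, under that symbol, in neither. In a bulk library, fewer cells of a type and less RNA per cell cannot be told apart.

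In FROZ liver, Apob decreased and Mttp increased at the 2 higher doses. For Apob, the lowest, median and highest values of the 6 vehicle animals were 409, 494 and 651 CPM. They were 313, 420 and 485 CPM at 198 mg/kg-d, 339, 378 and 500 CPM at 313 mg/kg-d, and 272, 345 and 424 CPM at 427 mg/kg-d. The median thus declined at each step, and 5 of 6 animals at the highest dose lay below all controls. The log2 fold change of Apob was -0.32 (SE 0.12, FDR 0.172) at 198 mg/kg-d, -0.36 (FDR 0.0325) at 313 mg/kg-d and -0.53 (95% confidence interval -0.78 to -0.27, FDR 0.00186) at 427 mg/kg-d, by limma with Benjamini-Hochberg adjustment. Apob fell by 30.7% on this scale at the highest dose. The call at 313 mg/kg-d was lost without vehicle animal 3, 5 or 6, or without animal 73, 75, 76 or 77 of that dose group, with an FDR between 0.0503 and 0.0926.

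Mttp measured 441, 488 and 548 CPM (lowest, median, highest) in vehicle FROZ libraries and 423, 547 and 660 CPM at 198 mg/kg-d. It measured 673, 876 and 978 CPM at 313 mg/kg-d and 808, 877 and 1030 CPM at 427 mg/kg-d. All 6 animals of each of these 2 groups lay above all controls, while the 198 mg/kg-d group overlapped them at both ends. The log2 fold change of Mttp was 0.16 (SE 0.10, FDR 0.445), 0.81 (FDR 1.44e-06) and 0.88 (95% confidence interval 0.68 to 1.09, FDR 1.71e-07) in order of dose, an increase of 84.5% at the highest. Of all FROZ genes, 9.14% lay above all controls in every animal at 313 mg/kg-d and 11.4% at 427 mg/kg-d.

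**Figure D1:**
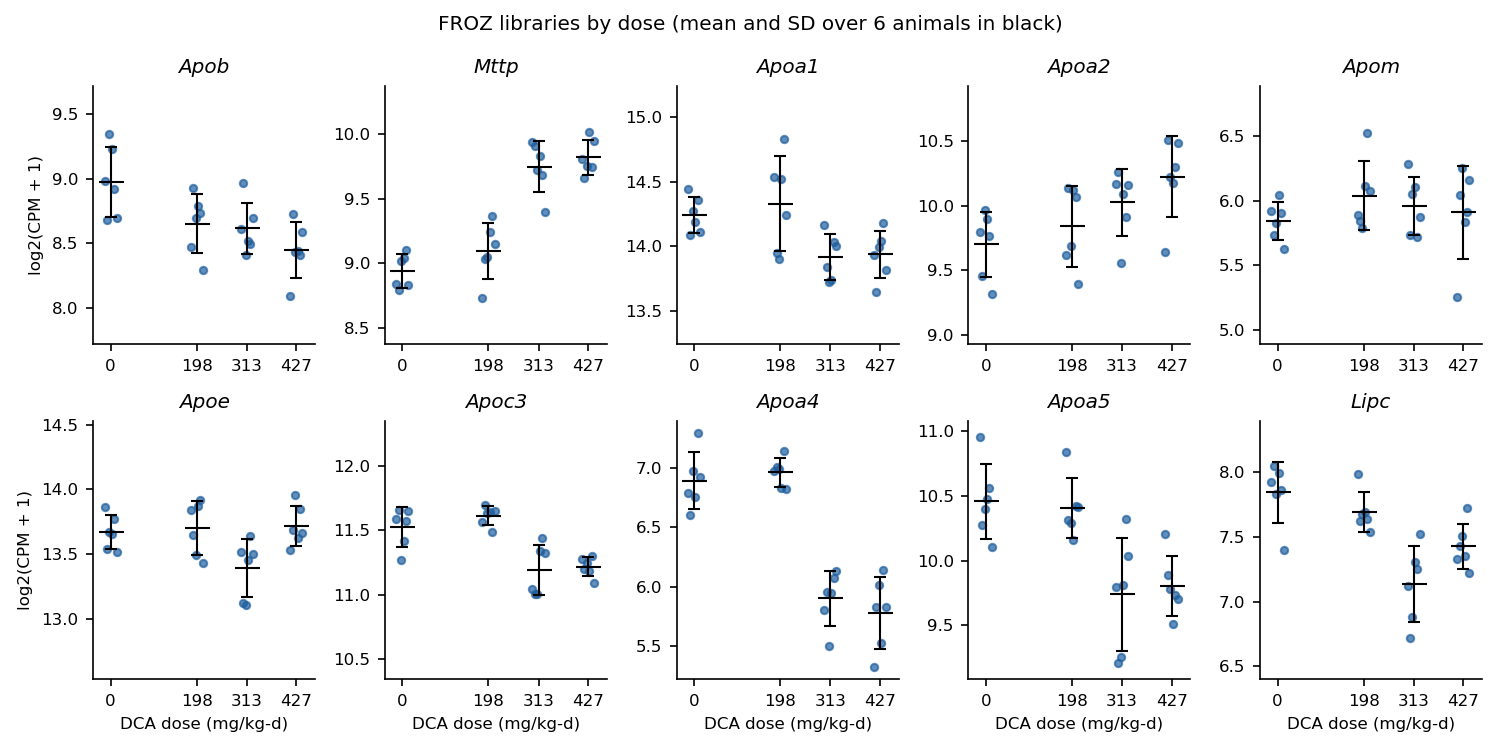
Levels of the 10 genes in FROZ libraries, log2(CPM + 1) on the vertical axis (its range differs between panels and does not start at 0) against the DCA dose in mg/kg-d. Points are animals and black bars are the mean and SD of 6 animals. Mttp stands above all controls and Apoa4 below all controls at 313 and 427 mg/kg-d.

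Of the high density lipoprotein genes, Apoa2 increased at the highest dose in FROZ liver, and Apoa1 and Apom did not pass the test. Apoa2 measured 636, 879 and 997 CPM in vehicle animals (lowest, median, highest) and 673, 948 and 1130 CPM at 198 mg/kg-d. Its values were 752, 1120 and 1220 CPM at 313 mg/kg-d and 798, 1230 and 1450 CPM at 427 mg/kg-d, where 5 of 6 animals lay above all controls and 1 within them. Its log2 fold change was 0.14 (FDR 0.695), 0.33 (FDR 0.118) and 0.52 (SE 0.15, FDR 0.00999) in order of dose. With libraries scaled by their median ratio, the change at 427 mg/kg-d was 0.38 (FDR 0.0547) and no longer passed the test. Without animal 75, the change at 313 mg/kg-d was 0.42 (FDR 0.0452).

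Apoa1, by contrast, measured 17400, 19200 and 22200 CPM in vehicle FROZ libraries and 12800, 16000 and 18600 CPM at 427 mg/kg-d. Although 5 of 6 animals lay below all controls both at 313 and at 427 mg/kg-d, the log2 fold changes of -0.33 (SE 0.15, FDR 0.113) and -0.31 (FDR 0.130) did not pass the test. Under median-ratio scaling they were -0.47 (FDR 0.0287) and -0.45 (FDR 0.0288) and did pass. Apom, the carrier of sphingosine 1-phosphate on high density lipoprotein, ranged from 48.5 to 65 CPM in vehicle animals and from 37.1 to 75.4 CPM at 427 mg/kg-d. Its groups overlapped at every dose, and its log2 fold changes of 0.20, 0.12 and 0.07 (95% confidence interval -0.22 to 0.35 at 427 mg/kg-d) did not pass the test, the last 2 turning to -0.02 and -0.08 under median-ratio scaling.

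Apoe had no change past the test in FROZ liver either. It measured 11700, 13000 and 14900 CPM (lowest, median, highest) in vehicle animals, 8810, 11400 and 12800 CPM at 313 mg/kg-d, and 11800, 13100 and 15900 CPM at 427 mg/kg-d. The group at 313 mg/kg-d stood lowest, with 4 of 6 animals below all controls and a log2 fold change of -0.28 (FDR 0.107), which under median-ratio scaling was -0.42 and passed (FDR 0.0206), whereas the highest dose gave 0.05 (95% confidence interval -0.21 to 0.31) and -0.10 under that scaling. Macrophages also make Apoe. The summed CPM of the 5 listed macrophage markers (of 6) ranged from 51.4 to 72.5 in vehicle FROZ libraries and from 40.5 to 53 at 427 mg/kg-d. Adgre1 (-0.50, FDR 0.0140), Csf1r (-0.35, FDR 0.0486) and C1qa (-0.53, FDR 0.0112) passed the test on the log2 scale. Clec4f (-0.19, FDR 0.37) and Cd68 (-0.27, FDR 0.363) did not. Of all FROZ genes, 7.33% passed downward at this dose. The part of macrophages in the Apoe values was not tested. The summed hepatocyte markers (5 of 6 listed) ranged from 7310 to 10800 CPM in vehicle and from 7250 to 9370 CPM at 427 mg/kg-d. Over the same 2 groups the endothelial sum ranged from 129 to 149 and from 99.9 to 121 CPM (5 of 5 markers listed), the stellate sum from 204 to 490 and from 179 to 334 CPM (4 of 5), the blood cell sum from 75.8 to 114 and from 48.3 to 99.9 CPM (5 of 6), and the bile duct sum from 0.956 to 3.27 and from 1.2 to 4.11 CPM (2 of 4). Their part in the values of the 10 genes was not tested.

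The genes of the chromosome 9 cluster that regulate triglyceride metabolism (Apoc3, Apoa4 and Apoa5), and Lipc, decreased in FROZ liver at 313 and 427 mg/kg-d. Apoa4 decreased most. Its lowest, median and highest values were 95.9, 115 and 156 CPM in vehicle animals, 112, 125 and 141 CPM at 198 mg/kg-d, 44.1, 60.8 and 69.3 CPM at 313 mg/kg-d, and 38.9, 55.7 and 69.4 CPM at 427 mg/kg-d. All 6 animals of both higher dose groups lay below all controls, which 2.39 and 3.27% of all FROZ genes did at these doses, while the 198 mg/kg-d group lay within the control range. The log2 fold change of Apoa4 was 0.07 (FDR 0.827), -0.99 (SE 0.13, FDR 1.99e-06) and -1.12 (95% confidence interval -1.37 to -0.86, FDR 1.45e-07), and only the last exceeded a fold change of 2. Among all FROZ genes, 3.5% passed FDR 0.05 with such a fold change at 427 mg/kg-d.

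Apoa5 measured 1100, 1380 and 1980 CPM in vehicle FROZ libraries (lowest, median, highest), 591, 894 and 1280 CPM at 313 mg/kg-d, and 727, 864 and 1180 CPM at 427 mg/kg-d. Here 5 of 6 animals of either group lay below all controls. Apoa5 changed by -0.72 (SE 0.16, FDR 0.00173) and -0.66 (FDR 0.00299), after -0.05 (FDR 0.915) at 198 mg/kg-d, on the log2 scale. Apoc3, which opposes lipoprotein lipase, moved less, from 2460, 3060 and 3220 CPM in vehicle to 2060, 2340 and 2770 CPM at 313 mg/kg-d and 2190, 2390 and 2520 CPM at 427 mg/kg-d. Its ranges overlapped those of the controls, with log2 fold changes of -0.33 (SE 0.09, FDR 0.00877) and -0.31 (FDR 0.0119).

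Lipc measured 168, 237 and 265 CPM in vehicle FROZ libraries and 185, 201 and 253 CPM at 198 mg/kg-d. It reached its lowest levels at 313 mg/kg-d, with 104, 145 and 183 CPM, and measured 148, 167 and 211 CPM at 427 mg/kg-d. Its log2 fold changes were -0.71 (SE 0.12, FDR 7.91e-05) and -0.42 (FDR 0.00923) at these 2 doses. The group at the highest dose overlapped the controls, 3 of 6 animals lying below all of them.

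Counted together, none of the 10 genes passed FDR 0.05 in FROZ liver at 198 mg/kg-d, where 1.56% of all genes did. At 313 mg/kg-d, 1 gene increased and 5 decreased, beside 20.5 and 6.15% of all genes. At 427 mg/kg-d, 2 increased (Mttp and Apoa2) and 5 decreased (Apob, Apoc3, Apoa4, Apoa5 and Lipc), beside 22.7 and 7.33% of all genes. With median-ratio scaling the split was 1 up and 7 down at 313 mg/kg-d and 1 up and 6 down at 427 mg/kg-d. The shares of all genes passing under that scaling are not given, so these splits cannot be set beside the shares above. The median log2 fold change of the 10 genes was 0.08, -0.33 and -0.31 in order of dose, whereas that of all FROZ genes was 0.07, 0.11 and 0.10 as deposited and close to 0 (-0.003, -0.004 and -0.007) after median-ratio scaling. That scaling brings the median of all genes near 0 by its construction.

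A linear slope over the 4 doses passed FDR 0.05 for 7 of the 10 genes in FROZ liver. Mttp increased by 0.23 log2 units per 100 mg/kg-d (SE 0.03, FDR 4.81e-07) and Apoa2 by 0.12 (FDR 0.00647). Apoa4 had the steepest decrease, -0.30 per 100 mg/kg-d (SE 0.04, FDR 6.92e-06), followed by Apoa5 (-0.18), Lipc (-0.13), Apob (-0.12) and Apoc3 (-0.09). Among all FROZ genes, 24.4% had an upward and 7.73% a downward slope. Of the 5 genes that decreased, Apob and Apoa5 had a median that declined at each of the 3 steps.

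**Figure D2:**
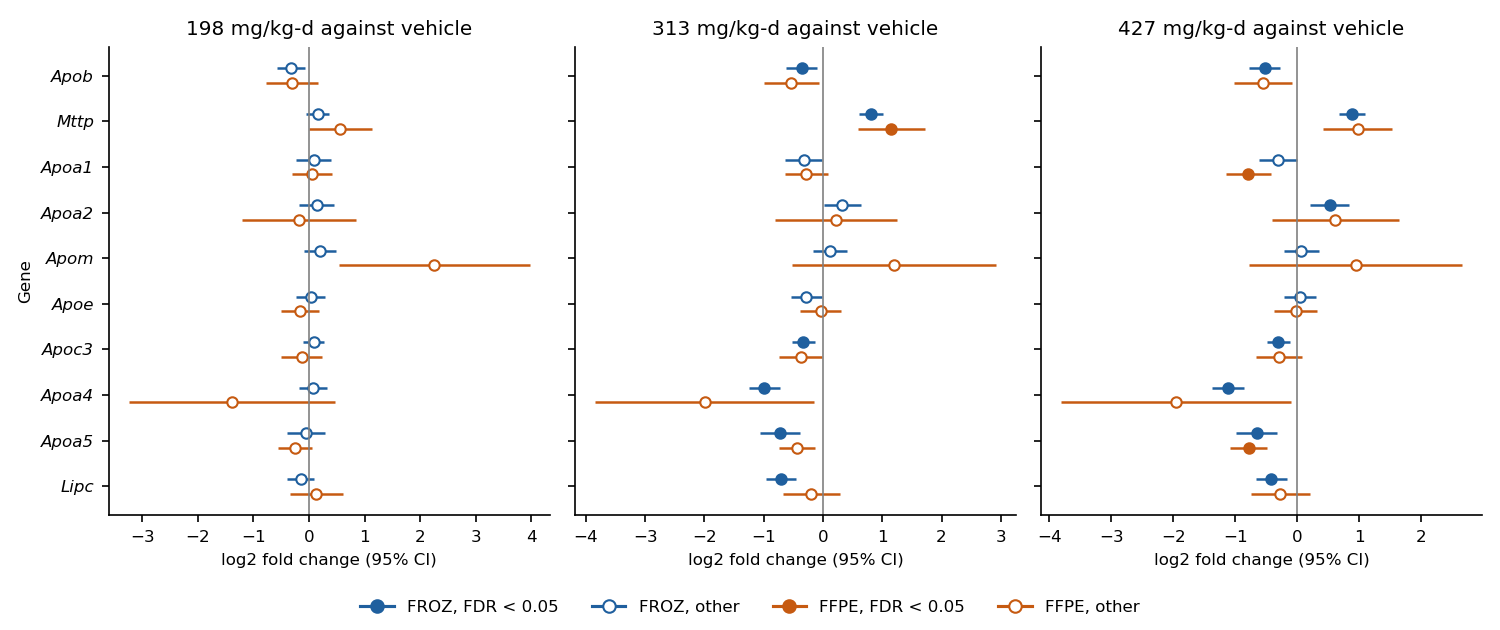
The log2 fold change against vehicle (horizontal axis) with its 95% confidence interval for each gene (vertical axis) at the 3 doses, in FROZ (blue) and FFPE (orange) liver. Filled points passed FDR 0.05. FFPE intervals are wider for all genes except Apoa5, above all for Apom, Apoa4 and Apoa2.

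The relation between the assembly genes was followed within each library as the difference of log2(CPM + 1), which no scaling of a library alters except at low values. In vehicle FROZ libraries Apob minus Mttp ranged from -0.18 to 0.33, with a mean of 0.04 ± 0.21 (SD, n = 6). At 198 mg/kg-d it ranged from -0.85 to -0.10, and 5 of 6 animals lay below all controls. It ranged from -1.32 to -0.70 at 313 mg/kg-d and from -1.72 to -0.93 at 427 mg/kg-d, without overlap with the controls. The mean moved by -0.48 (exact permutation test, two-sided, p = 0.00866, adjusted p = 0.0195 over 18 comparisons), -1.17 and -1.41 (p = 0.00217 and adjusted p = 0.0065 for both, exact permutation test, the smallest p that 6 against 6 animals allow). This was the one comparison of these genes that passed at the lowest dose.

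In FFPE libraries Apob minus Mttp ranged from 1.64 to 3.56 in vehicle animals, from -0.25 to 1.35 at 313 mg/kg-d and from 0.42 to 1.42 at 427 mg/kg-d. Both higher dose groups lay entirely below the controls, with changes of -1.69 and -1.54 (exact permutation test, two-sided, p = 0.00217, adjusted p = 0.0065). At 198 mg/kg-d the change was -0.87 and did not pass (exact permutation test, adjusted p = 0.201). The sign of the change was the same in both tables at each dose.

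Apoa1 minus Apoa2 moved by -0.65 at 313 mg/kg-d and by -0.83 at 427 mg/kg-d in FROZ libraries, where all 6 animals of each group lay below all controls (exact permutation test, two-sided, p = 0.00217, adjusted p = 0.0065). In FFPE it changed by -1.40 at 427 mg/kg-d with 5 of 6 animals below all controls (exact permutation test, p = 0.00433, adjusted p = 0.0111), and by -0.50 at 313 mg/kg-d, which did not pass (adjusted p = 0.336, exact permutation test). Apoa5 minus Apoc3 changed by -0.39 and -0.35 in FROZ at these doses, both with p = 0.0628 (adjusted p = 0.103, exact permutation test). In FFPE at 427 mg/kg-d it changed by -0.49 (exact permutation test, p = 0.0173, adjusted p = 0.0346), with overlapping groups.

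**Figure D3:**
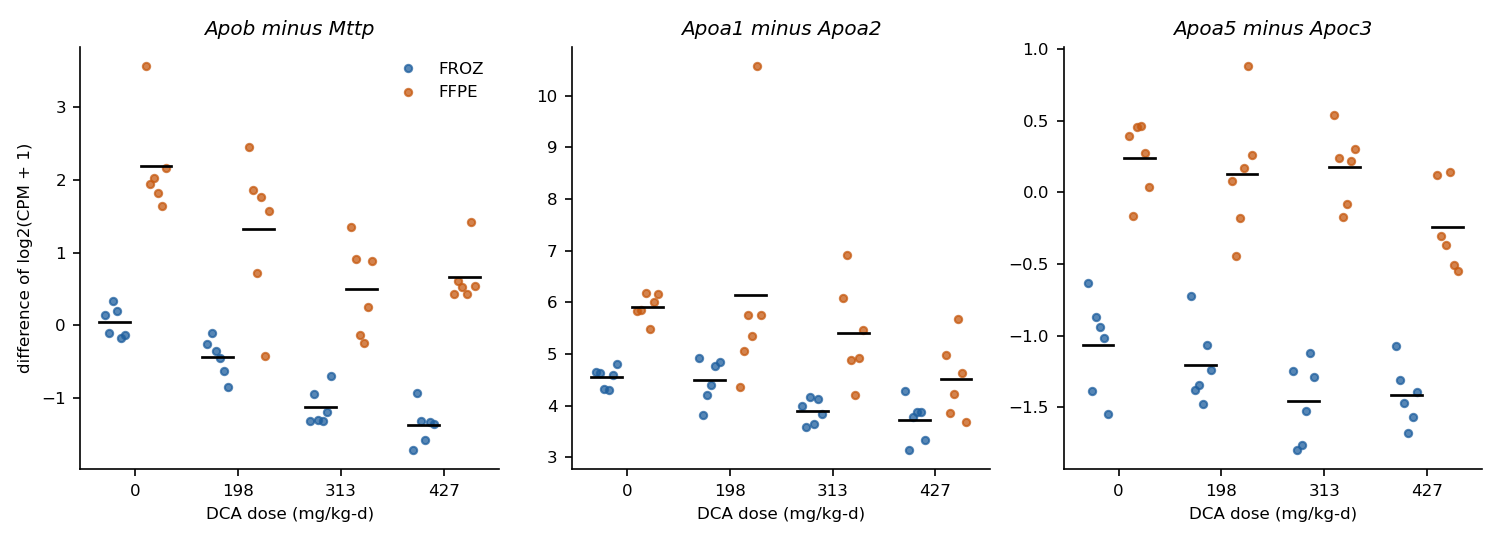
Within-library differences of log2(CPM + 1) (vertical axis) by DCA dose in mg/kg-d (horizontal axis) for FROZ (blue) and FFPE (orange) libraries, with 1 point per animal and a bar at the mean. Apob minus Mttp lies below all controls at 313 and 427 mg/kg-d in both tables.

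In FFPE liver fewer of these genes passed the test. Mttp increased at 313 mg/kg-d, and Apoa1 and Apoa5 decreased at 427 mg/kg-d. Mttp measured 130, 265 and 324 CPM in vehicle animals (lowest, median, highest), 288, 548 and 844 CPM at 313 mg/kg-d, and 248, 511 and 621 CPM at 427 mg/kg-d. At either dose 5 of 6 animals lay above all controls and 1 among them. The log2 fold change was 1.16 (SE 0.27, FDR 0.0240) at 313 mg/kg-d and 0.98 (95% confidence interval 0.42 to 1.54, FDR 0.0505) at 427 mg/kg-d. The call at 313 mg/kg-d was lost without vehicle animal 3 (0.98, FDR 0.0946), 5 (1.15, FDR 0.0582) or 8 (1.11, FDR 0.0613), and without animal 75 (1.09, FDR 0.0781), 76 (1.02, FDR 0.0758) or 77 (1.03, FDR 0.0843) of that dose group. At 427 mg/kg-d it was gained without vehicle animal 7 (1.06, FDR 0.0446) or without animal 101 (1.16, FDR 0.014), which had the lowest Mttp of its group.

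Apoa1 measured 27000, 31300 and 37100 CPM in vehicle FFPE libraries and 15900, 17300 and 21400 CPM at 427 mg/kg-d, where all 6 animals lay below all controls. Apoa1 changed by -0.79 on the log2 scale (SE 0.18, FDR 0.00779), as against -0.28 (FDR 0.569) at 313 mg/kg-d. Apoa5 measured 1850, 2090 and 2250 CPM in vehicle FFPE libraries and 1060, 1140 and 1540 CPM at 427 mg/kg-d, again without overlap. Its log2 fold change was -0.25 (FDR 0.514), -0.44 (FDR 0.183) and -0.78 (SE 0.15, FDR 0.00116) in order of dose. Both calls were lost with a variance prior that did not follow the mean (FDR 0.0907 for Apoa1 and 0.0597 for Apoa5). Of all FFPE genes, 1.54% lay below all controls in every animal at the highest dose.

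Apob did so too in FFPE at 427 mg/kg-d, with 657, 741 and 848 CPM against 922, 1060 and 1550 CPM in vehicle animals, but its log2 fold change of -0.56 (SE 0.23, FDR 0.359) did not pass the test across all genes. Apoc3 (-0.30), Lipc (-0.27), Apoe (-0.02), Apoa2 (0.61) and Apom (0.94) had 95% confidence intervals that included 0 at 427 mg/kg-d. Apoa4 ranged from 38.9 to 94.2 CPM in vehicle FFPE libraries and from 0.398 to 49.4 CPM at 427 mg/kg-d, and was at 0 in the library of animal 75 at 313 mg/kg-d, which allows up to 0.865 CPM (3 reads, counting error only). Its log2 fold change of -1.96 at the highest dose had an SE of 0.91 (FDR 0.510). Apom was at 0 in the FFPE library of vehicle animal 8, which allows up to 0.594 CPM, and reached 22.4 CPM in that of another vehicle animal.

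By count, none of the 10 genes passed in FFPE liver at 198 mg/kg-d, 1 increased and 0 decreased at 313 mg/kg-d, and 0 increased and 2 decreased at 427 mg/kg-d. Of all FFPE genes, 0.0599% passed in either direction at the lowest dose, 0.764% rose and 0.315% fell at 313 mg/kg-d, and 1.54% rose and 0.869% fell at 427 mg/kg-d. A dose slope passed for Mttp (0.26 log2 units per 100 mg/kg-d, FDR 0.0185), Apoa1 (-0.18, FDR 0.0414) and Apoa5 (-0.18, FDR 0.00163), where 2.17% of all FFPE genes had one. Counts were 0, 1 and 2 as well when the FFPE libraries with more than 1000 genes at 0 were left out. The SD within a dose group was 1.67 for Apoa4, 1.31 for Apom and 1.05 for Apoa2 in FFPE, against 0.23, 0.26 and 0.29 in FROZ. For Apoe it was 0.17 in FFPE and 0.18 in FROZ, and for Apoa5 0.21 and 0.31.

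**Figure D4:**
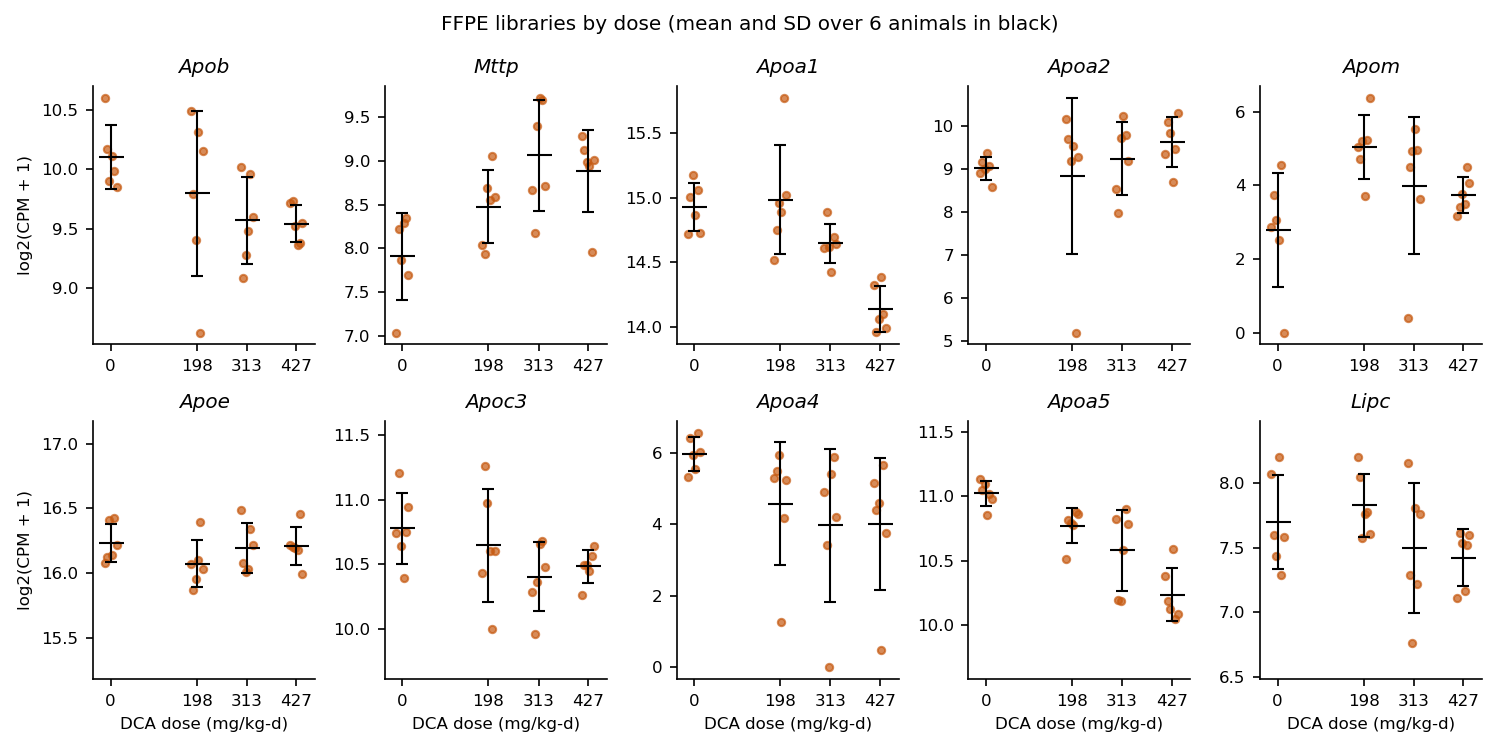
Levels of the 10 genes in FFPE libraries, log2(CPM + 1) on the vertical axis (ranges differ between panels and do not all start at 0) against the DCA dose in mg/kg-d. Points are animals, and black bars are the mean and SD of 6 animals. Apoa1 and Apoa5 lie below all controls at 427 mg/kg-d.

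Whether the response itself differed between FFPE and FROZ liver was tested within animals, each animal's FROZ value being subtracted from its FFPE value. None of the 10 genes passed at any dose after adjustment by limma over 6591 genes, of which 0.0303, 0 and 0.0303% passed in order of dose. The largest departure in units of its error was that of Apoa1 at 427 mg/kg-d, which was lower in FFPE by a log2 difference of -0.48 (SE 0.15, unadjusted p = 0.00402 by limma, FDR 1). Without adjustment, 3 others were under 0.05, namely Apom at 198 mg/kg-d (difference 2.06, FDR 0.303) and, at 313 mg/kg-d, Apoe (0.24, FDR 0.583) and Lipc (0.51, FDR 0.564). Of the 6591 genes, 793, 540 and 157 were under 0.05 unadjusted at the 3 doses. For Mttp at 427 mg/kg-d the difference was 0.09 (SE 0.27) and for Apob -0.03 (SE 0.29).

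The level of most of these genes differed between preservations in the vehicle animals. For this comparison both tables were rescaled to the 6591 genes they share, of which 53.5% differed at FDR 0.05, 31.1% higher and 22.4% lower in FFPE. Apoe was higher in FFPE in 24 of 24 animals, by 2.51 log2 units in the vehicle group (SE 0.08, FDR 1.09e-18). As deposited, it measured 69200, 74200 and 88200 CPM in vehicle FFPE libraries (lowest, median, highest), against 11700, 13000 and 14900 CPM in FROZ. Apob (1.07, FDR 8.91e-05), Apoa1 (0.63, FDR 2.12e-05) and Apoa5 (0.50, FDR 0.00094) were also higher in FFPE, in 6 of 6 vehicle animals each.

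Lower in FFPE were Mttp (-1.09, FDR 3.81e-05), Apoc3 (-0.80, FDR 3.45e-07) and Apom (-3.11, FDR 2.1e-05), each in 6 of 6 vehicle animals. Apom measured 48.5, 57.5 and 65 CPM in vehicle FROZ libraries and 0, 6.86 and 22.4 CPM in the FFPE libraries of the same animals. The differences of Apoa2 (-0.74), Apoa4 (-0.98) and Lipc (-0.20) did not pass the test. The median difference of all genes was 0.28. The neighbours Apoa1, Apoc3 and Apoa5 thus stood on either side of it.

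**Figure D5:**
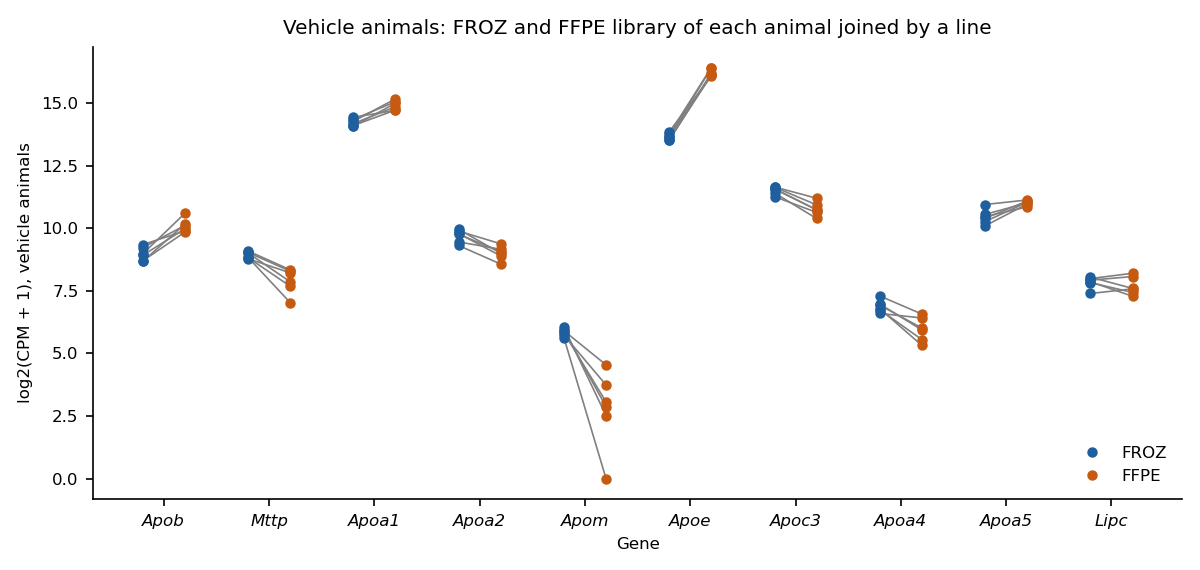
Levels in the 6 vehicle animals as deposited, log2(CPM + 1) on the vertical axis, for each gene (horizontal axis), with the FROZ (blue) and FFPE (orange) library of an animal joined by a line. Apoe stands higher and Apom lower in FFPE in every animal.

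The wider pathway was read from a list of 54 genes, of which 53 were listed in FROZ and 41 in FFPE. In FROZ liver 2 increased and 2 decreased at 198 mg/kg-d, beside 1.56% of all genes in either direction. At 313 mg/kg-d 8 increased and 9 decreased, beside 20.5 and 6.15% of all genes, and at 427 mg/kg-d 17 and 11, beside 22.7 and 7.33%. Their median log2 fold change at the highest dose was 0.11, beside 0.10 for all genes. In FFPE, 0 passed at 198 mg/kg-d, where 0.0599% of all genes did. At 313 mg/kg-d 1 increased and 1 decreased, beside 0.764 and 0.315% of all genes, and at 427 mg/kg-d 3 and 2, beside 1.54 and 0.869%.

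Of 11 listed apolipoprotein and high density lipoprotein genes beyond the 10, 2 increased and 4 decreased in FROZ at 427 mg/kg-d, beside 22.7 and 7.33% of all genes. Apoc2, the activator of lipoprotein lipase, increased from 7.06 ± 0.12 to 7.88 ± 0.06 in mean log2(CPM + 1) ± SD (n = 6), a log2 fold change of 0.82 (FDR 1.91e-09, limma). Its log2 fold change in FROZ was already 0.56 (FDR 8.18e-05) at 198 mg/kg-d and was 0.91 (FDR 1.04e-09) at 313 mg/kg-d. In FFPE it increased by 1.58 at 313 mg/kg-d (FDR 0.000281) and by 1.35 at 427 mg/kg-d (FDR 0.00138). Apof (-0.53, FDR 0.000235), an inhibitor of lipid transfer, Clu (-0.61, FDR 0.000248), also known as apolipoprotein J, and Pon1 (-0.76, FDR 0.000296), which encodes paraoxonase of high density lipoprotein, decreased in FROZ at the highest dose. Pon1 had its lowest level at 313 mg/kg-d (-1.15), where it exceeded a fold change of 2.

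Of 12 genes of particle assembly and export, 4 increased and 2 decreased in FROZ at 427 mg/kg-d, against the same shares of all genes (22.7% up and 7.33% down). Sar1b, the GTPase of the coat that carries lipoprotein cargo out of the endoplasmic reticulum, increased by 0.76 (FDR 2.13e-06), and by 1.00 in FFPE (FDR 0.0102). A1cf, a cofactor of Apob mRNA editing, increased by 0.61 (FDR 0.000146), and by 1.32 in FFPE (FDR 0.0442). Sort1 (-0.41, FDR 0.00419), a sorting receptor, decreased in FROZ, as did P4hb (-0.37, FDR 0.0271), which encodes the partner subunit of the Mttp protein.

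Among 8 genes of lipase control, Angptl4, an inhibitor of lipoprotein lipase, increased in FROZ at 427 mg/kg-d from 9.18 ± 0.19 to 10.44 ± 0.11 in mean log2(CPM + 1) ± SD (n = 6), a log2 fold change of 1.26 (FDR 3.84e-05). At 198 mg/kg-d its log2 fold change in FROZ was negative (-0.74, FDR 0.0634) and at 313 mg/kg-d it was 0.13 (FDR 0.697), and neither passed. In FFPE its log2 fold changes of -2.35, -0.61 and 1.51 in order of dose did not pass either (FDR 0.343, 0.869 and 0.826). The lipase maturation factor Lmf1 decreased by 0.41 (FDR 0.00152), and Pcsk6 (0.22, FDR 0.0726) did not pass. Of 10 receptor and efflux genes 5 increased and 3 decreased, beside 22.7 and 7.33% of all genes. Vldlr increased by 1.81 (FDR 4.63e-05) from a low level of 0.84 ± 0.95 in mean log2(CPM + 1), Sdc1, a remnant receptor, by 0.83 (FDR 3.52e-05) and the cholesterol exporter Abca1 by 0.43 (FDR 0.000146). Lrp1, another remnant receptor, decreased (-0.43, FDR 2.23e-05).

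Of 12 transcription factors known to act on these genes, 4 increased and 1 decreased in FROZ at 427 mg/kg-d, beside 22.7 and 7.33% of all genes. Nr1h4, the bile acid receptor, increased by 0.97 (FDR 1.57e-09), Creb3l3 by 0.62 (FDR 2.15e-05) and Hnf4a by 0.46 (FDR 0.00441). Foxo1 decreased (-0.47, FDR 0.00515). None of the 10 transcription factors listed in FFPE passed there at any dose, where at most 1.54% of all genes passed upward and 0.869% downward.

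The genes whose levels over the 24 FROZ libraries were most like those of Mttp, out of 5865 genes averaging 10 CPM or more, were 4930402H24Rik (Pearson r 0.974), Abcd3 (0.97), the peroxisomal transporter of fatty acyl-CoA, and Pank1 (0.968), a pantothenate kinase of coenzyme A synthesis. Their log2 fold changes in FROZ at 427 mg/kg-d were 0.96, 1.71 and 1.53. Those most like Apoa4 were Trf (0.937), which encodes transferrin, Gpc4 (0.921) and Cpn2 (0.915), with log2 fold changes of -0.75, -0.52 and -0.78. These correlations span the dose groups, which all the points share, and are given as a description.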

How the data were processed

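TempO-Seq was analyzed in 48 libraries of 24 mice, with dose, preservation and animal taken from the labels. The authors aligned reads to mm10 with STAR 2.6 in Partek Flow, per the paper's methods and the submitters' processing notes, assigned them to RefSeq genes by an expectation maximization count, filtered out genes whose geometric mean did not exceed 1, and deposited log2(CPM + 1), scaled separately in each table. A FROZ and an FFPE level are thus shares of different gene sets. From the step of low values the CPM of 1 read was recovered (0.102 to 0.15 in FROZ, 0.166 to 0.546 in FFPE). Low values lay within 0.05 of a whole read for 96.2 to 97% of them in FROZ and 76.6 to 94.2% in FFPE. RNA-Seq libraries were not analysed here.

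Each dose was compared with vehicle by limma 3.58.1 (R 4.3.3) over all genes and the 24 libraries of a table, with a mean-dependent variance prior (limma-trend) and Benjamini-Hochberg adjustment. Passing means FDR under 0.05. A slope over dose was fitted likewise. Response and vehicle level were compared between preservations by limma on paired differences of the 6591 genes named once in both tables. The animal numbers in the sample records pair the libraries: after dose means were removed from 4227 genes, the median r within an animal was 0.144 (lowest -0.0151), and 21 of 24 FROZ libraries correlated best with the FFPE library of their own animal. Within-library differences were tested by exact permutation (NumPy 2.4.6, two-sided) and adjusted over 18 comparisons. Ranks for the rank sum alternative came from SciPy 1.17.1. Scripts were tested on simulated data. Positions came from GENCODE (GRCm38) and promoters from RefSeq (GRCm38.p6).

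The 10 genes, the pathway and marker lists and the tests were chosen with earlier results of these data known. Named were the 10 genes, pathway genes with FDR under 0.05 and a fold change above 2 at any dose in FROZ, up to 4 genes per list with the smallest FDR at 427 mg/kg-d, and the 3 genes most like Mttp and Apoa4, the members with the largest increase and decrease. A gene that this rule names is not reported here. The hepatocyte and macrophage markers were named after their values were seen. Of the pathway list, Apod was in neither table. Alternatives were an offset of 0.1 CPM, median-ratio scaling, a prior without trend, fits of 2 groups only, array quality weights, a filter at a mean of 10 CPM, leaving out each animal, the highest dose or 4 sparse FFPE libraries, a fit without the animal block, and the exact rank sum test.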

Additional observations from a re-analysis of the deposited data

Results flagged for a closer look

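Each gene was examined in every dose group of both tables for an animal far from the other 5, which made 80 groups, of which 7 were marked, where chance marks about 1 in 20. In FFPE, Apoa2 was lowest in animal 53 at 198 mg/kg-d, with a log2(CPM + 1) of 5.2 against 9.2 in the next animal. Apoa4 was lowest in animal 100 at 427 mg/kg-d (0.48, next 3.76) and Apom in animal 73 at 313 mg/kg-d (0.4, next 3.64). Apoa5 was lowest in animal 49 at 198 mg/kg-d (10.51, next 10.77), the FFPE library with the fewest reads on listed genes (1.83 M). Mttp was lowest in animal 101 at 427 mg/kg-d (7.96, next 8.94). In FROZ, Lipc was lowest in vehicle animal 8 (7.4, next 7.83) and highest in animal 49 at 198 mg/kg-d (7.99, next 7.69).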

How the results depend on the processing

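There were 1140 refits of 70 values of the 10 genes, most of them fold changes of a dose against vehicle. Of these refits, 1086 kept their direction and their side of FDR 0.05, 18 lost the call, 12 gained it and 24 changed sign. None of the changes of sign was from or to a call. In FROZ, leaving out 1 animal gave 0 genes at 198 mg/kg-d, 5 to 6 at 313 mg/kg-d and 7 at 427 mg/kg-d. In FFPE it gave 0 at 198 mg/kg-d, 0 to 1 at 313 mg/kg-d and 2 to 3 at 427 mg/kg-d. The FFPE count at 313 mg/kg-d was 0 with a prior without trend and with only 2 groups fitted, and at 427 mg/kg-d 0 with a prior without trend, 4 with only 2 groups and 5 with array quality weights, the causes of which were not tested. The shares of all genes passing in these refits, and in those without 1 animal, are not given. Whether the changed counts concern these genes or the whole table thus cannot be told. With 2 groups, Apob (FDR 0.0122) and Mttp (FDR 0.0111) joined at 427 mg/kg-d. Without the highest dose 0 FFPE slopes passed, in fewer libraries. Apoa5 minus Apoc3 in FFPE at 427 mg/kg-d (-0.49) had an adjusted p of 0.0519 by the exact rank sum test.

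Changes of sign with median-ratio scaling were, in FROZ at 198 mg/kg-d, Apoa1 -0.0039, Apoe -0.0597, Apoc3 -0.0023 and Apoa4 -0.0174, at 313 mg/kg-d Apom -0.0213, and at 427 mg/kg-d Apom -0.0772 and Apoe -0.0982. With array quality weights they were Apoe -0.0029 (FROZ) and Apoa1 -0.07, Apoa2 0.1494 and Apoc3 0.2282 (FFPE), all at 198 mg/kg-d. Leaving out 1 animal changed a sign within these ranges: in FROZ at 198 mg/kg-d, Apoa1 -0.0146 to 0.1724, Apoe -0.0127 to 0.0841 and Apoa5 -0.1392 to 0.0467; in FROZ at 427 mg/kg-d, Apom -0.0028 to 0.1978 and Apoe -0.0005 to 0.0865; in FFPE, Apoa1 -0.0991 to 0.151 and Apoa2 -0.4362 to 0.5544 at 198 mg/kg-d, and Apoe -0.097 to 0.0008 at 313 mg/kg-d and -0.0749 to 0.018 at 427 mg/kg-d.

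Without the replicate block, that is without pairing the libraries of an animal, 0 genes differed in response at any dose and 7 differed in vehicle level, as with the block. At 1.83 to 6.01 M reads, FFPE values of Apom and Apoa4 down to 0 limit what their comparisons can show.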

Other observations

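Within a dose group, the levels of some of these genes moved together from library to library. With 1 library per animal in each table, differences between animals and between libraries cannot be told apart. After the dose mean was taken out, Apob and Apoa2 in FROZ liver had a Pearson r of 0.889 and a Spearman rho of 0.918 over 24 libraries, the highest of 45 pairs (both p = 1e-05, the smallest that 100000 permutations within dose groups can give, adjusted p = 0.00045). Without the 2 libraries farthest from the median of Apob, r was 0.904. Between dose groups these genes went opposite ways in FROZ, with log2 fold changes at 427 mg/kg-d of -0.53 for Apob and 0.52 for Apoa2. In FFPE the same pair had an r of 0.685 (permutation p = 0.0214, adjusted p = 0.193) and a rho of 0.413 (permutation p = 0.0664), and r was 0.255 without the 2 libraries farthest from the median, so the FFPE relation rests on those libraries.

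Apoa1 and Apoe were the other FROZ pair with an adjusted p under 0.05 for both r and rho (r 0.679, permutation p = 0.00144, adjusted p = 0.0324; rho 0.733, adjusted p = 0.0148), and r was 0.622 without the 2 libraries farthest from the median of Apoa1. Apoe and Lipc passed by rho alone (rho 0.633, permutation p = 0.00224, adjusted p = 0.0336; r 0.609, adjusted p = 0.0588). In FFPE, 1 of 45 pairs passed by both measures, Apoa1 and Apoa2, with opposite sign (r -0.84, permutation p = 0.00027, adjusted p = 0.0121; rho -0.611, adjusted p = 0.029). Without the 2 libraries farthest from the median of Apoa1, that r was -0.575. In FROZ, Apoa1 and Apoa2 had an r of 0.168 (permutation test, adjusted p = 0.6). In FFPE, Apoa1 and Apoe had an r of 0.496 (permutation test, adjusted p = 0.228). Apoa1 and Lipc passed in FFPE by rho alone (rho -0.645, permutation p = 0.00099, adjusted p = 0.029; r -0.444, adjusted p = 0.157). The pairs were chosen after their values were seen. All values of a library are shares of 1 total.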
